A study of Homo sapiens with 6 samples.

Results

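Chemokine genes were taken from RNA sequencing of SK-OV3 cells, a human ovarian cancer line, as every row of the count table whose symbol is CCL, CXCL, CX3CL or XCL followed by a number, with an optional L and digit for duplicated copies. This gave 43 of the 59653 genes in the table, of which 26 were CCL, 14 CXCL, 2 XCL and 1 CX3CL genes. Cells labelled wildtype received either a pool of non-targeting siRNAs (siControl) or a pool of siRNAs against the lncRNA PVT1 (siPVT1), both through the same transfection reagent, and RNA was taken after 48 h. Each group held 3 libraries, and nothing in the labels says whether they came from separate cultures, so p-values measure the spread between these libraries. Each group received 1 siRNA pool in 1 cell line, so loss of PVT1 and other effects of the pool cannot be told apart.

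Chemokines are small secreted proteins that steer leukocytes along concentration gradients, and their families are named for the spacing of conserved cysteines. CXC chemokines with a Glu-Leu-Arg (ELR) motif attract neutrophils and promote vessel growth through CXCR1 and CXCR2, whereas CXCL9, CXCL10 and CXCL11 attract T cells through CXCR3 and are induced by interferon. Inflammatory CC chemokines such as CCL3, CCL4 and CCL5 attract monocytes and T cells through receptors such as CCR1, and many chemokine genes sit beside each other in clusters that arose by duplication.

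The total estimated count per library ranged from 28383171 to 35059576, and every pair of replicates was further apart than counting noise gives (chi-square over its degrees of freedom from 1.75 to 45.3). Across genes, siPVT1 replicate 3 stood furthest from the others of its group. Its values were 45.3 with replicate 1 and 19.6 with replicate 2, against 8.62 between siPVT1 replicates 1 and 2. PVT1 normalized counts were 3298, 4090 and 3377 in the siControl libraries and 2350, 2111 and 2062 in the siPVT1 libraries, so the groups did not overlap and the order went with the labels. The log2 fold change of PVT1 was −0.72 (SE, the standard error, 0.0967, edgeR adjusted p = 0.000342), short of the 2-fold threshold used below for calling a gene. All 8 epithelial and ovarian markers examined, KRT8 and PAX8 among them, were over 3 counts. Of the leukocyte markers, CD3E, which defines T cells, was at 0 in every library and PTPRC, shared by leukocytes, had at most 2 counts. The summed normalized counts of the 7 leukocyte markers ranged from 797 to 991 in siControl and from 609 to 922 in siPVT1, and ITGAM (log2 fold change −4.06) and CD14 (at least 2.43-fold lower) fell in siPVT1, CD14 having been tested through its siControl counts alone. CD68, the most abundant of the 7, had 584 ± 31.6 and 721 ± 157 normalized counts (log2 fold change 0.30, edgeR adjusted p = 0.111). WT1 was the 1 epithelial marker past both thresholds, with a log2 fold change of −1.01. Across all tested genes, 11.8% rose and 9.64% fell past both thresholds. All 3 endothelial markers, CDH5, PECAM1 and VWF, were higher in siPVT1, with a summed range of 2046 to 2072 against 8608 to 10883. CDH5 carried most of this sum, with 1998 ± 7.09 and 9314 ± 1108 normalized counts. PECAM1 had 37.5 ± 3.73 and 299 ± 24.3, and VWF 24.4 ± 7.09 and 77.4 ± 10.1. COL1A1 and PDGFRB, among 4 fibroblast markers, were also higher, with a summed range of 211 to 220 against 797 to 834, while LUM had 15.9 ± 7.64 and 7.23 ± 5.09 normalized counts (log2 fold change −1.15, edgeR adjusted p = 0.132) and DCN at most 1 count. The labels name no cells other than SK-OV3. Which cells held these marker transcripts was not tested, nor was the part of any other cells in the chemokine values. In bulk RNA the number of cells of a type and the RNA per cell cannot be told apart.

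SK-OV3 cells transcribed some of the chemokine genes, and those that passed both thresholds were higher in siPVT1. Over 3 counts were seen in some library for 16 of the 43 genes, 7 CCL and 9 CXCL. Of these, 14 had enough counts to be tested, and 11 rose in siPVT1 by at least 2-fold with an adjusted p-value under 0.05, namely CXCL8, CXCL1, CXCL2, CXCL5, CXCL10, CXCL16, CCL3, CCL3L3, CCL4, CCL5 and CCL20. Across all 19008 genes tested 11.8% rose past these thresholds and 9.64% fell. No chemokine gene fell by edgeR's quasi-likelihood test, where 0 of them had an unadjusted p under 0.05 in that direction, or by DESeq2, where 1 did. Among the 14 tested genes, the same 11 were those whose 3 siPVT1 libraries all lay above the 3 siControl libraries, a pattern seen in 33.2% of tested genes. The median log2 fold change of the 14 genes was 1.54, also with CCL3L3 and CCL4, which were at the floor in siControl, set to their bounds, against 0.00138 over all tested genes. CCL3L3, CCL4, CCL5 and CXCL10 reached the count minimum in 3 siPVT1 libraries and in at most 1 siControl library, so they could be tested because they were high in siPVT1. Of the other 10 tested genes 7 rose, and their median was 1.24. Scaling by the total count in place of TMM moved the median of all genes by −0.149 and the share of called genes that were higher from 55.1% to 43.8%, and the count of chemokine genes called remained 11.

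The other 27 genes had at most 3 counts in every library. Of these, 9 had no count at all, namely CCL7, CCL11, CCL13, CCL14, CCL15, CCL17, CCL23, CCL25 and CXCL9. A count of 0 allows up to 3 counts, which is 0.089 to 0.107 CPM (counts scaled to a library of fixed size). The remaining 18, with 1 to 3 counts at most, included CCL2, the main monocyte attractant, CXCL12, the ligand of CXCR4, and CX3CL1, a membrane-bound chemokine. CCL1, CCL4L2, CCL8, CCL16, CCL18, CCL19, CCL21, CCL22, CCL24, CCL27, CXCL6, CXCL13, CXCL17, XCL1 and XCL2 make up the rest. At this depth a change in any of these genes was not detectable, and none was tested. CX3CL1 had 0, 0 and 1 counts in siControl and 2, 3 and 3 in siPVT1. CCL24 had 1, 0 and 1 in siControl and 2, 2 and 3 in siPVT1. The groups did not overlap in these genes, at counts too low to be read as a change.

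**Figure D1:**
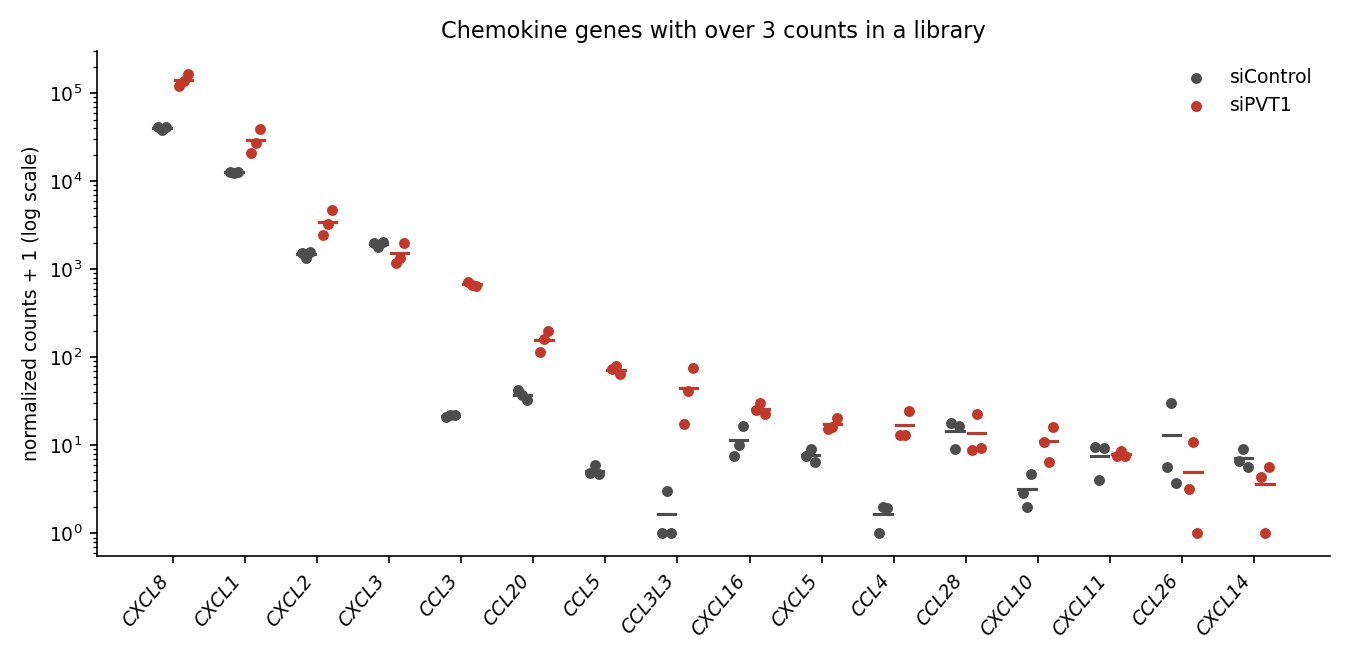
Normalized counts plus 1 (log axis) of the 16 chemokine genes with over 3 counts in a library, ordered by their mean in siPVT1. Points are libraries (3 per group) and bars are group means, and CXCL8 and CXCL1 stand above all other members in both groups.

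Levels of different genes were compared as CPM per kilobase of annotated transcript, and they spanned a wide range. In siControl CXCL8 stood at 789 ± 37.2 (SD, n = 3), CXCL1 at 345 ± 8.11, CXCL3 at 57.8 ± 3.56 and CXCL2 at 42.8 ± 3.63. These 4 ELR genes were separated from each other by more than their SDs. CCL20 followed at 1.41 ± 0.202, CCL3 at 0.857 ± 0.0293 and CCL26 at 0.83 ± 0.999, of which CCL26 did not differ from its neighbours in the order beyond its spread. Every other expressed member was at 0.145 or below. In siPVT1 the order at the top was CXCL8 (2760 ± 450), CXCL1 (801 ± 252), CXCL2 (100 ± 33.4), CXCL3 (45.3 ± 12.9), CCL3 (28 ± 1.53) and CCL20 (6.08 ± 1.6), so that CXCL2 and CXCL3 had changed places. Among 15808 tested genes with a known length, CXCL8 ranked 57 in siControl and 14 in siPVT1, and CCL3 moved from rank 11938 to rank 2348. Together the 43 genes took 0.187% to 0.193% of the counts of a siControl library and 0.446% to 0.647% of those of a siPVT1 library. CXCL8 alone made up 71.1% to 71.8% of chemokine counts in siControl and 77.9% to 82.4% in siPVT1.

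The ELR chemokine genes lie in 1 cluster on chromosome 4 of GRCh38, from 73740519 to 74099196, in the order CXCL8, CXCL6, CXCL1, CXCL5, CXCL3 and CXCL2. The 250 bases before the RefSeq transcription start (GRCh38.p14) are shown for CXCL8, the most abundant member, and for CXCL1, CXCL2 and CXCL3, near-copies whose changes differed. Capitals mark matches, on either strand, to the letters GGGNNNNNCC or GGNNTTTCC, which are loose forms of the site bound by NF-kB. GGGNNNNNCC occurs in 54.4% of all windows of this kind, so a stretch in capitals need not be an NF-kB site. Binding was not tested. Matches to both patterns and on both strands overlap in these windows, and the GENCODE gene model begins further upstream than the RefSeq start for CXCL8 and CXCL3.
CXCL8 (chr4:73740319-73740568, plus strand): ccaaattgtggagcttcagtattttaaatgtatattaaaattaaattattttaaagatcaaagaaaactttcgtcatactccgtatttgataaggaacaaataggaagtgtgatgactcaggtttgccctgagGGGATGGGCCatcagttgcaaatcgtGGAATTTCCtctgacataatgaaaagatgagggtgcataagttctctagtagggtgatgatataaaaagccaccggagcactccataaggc
CXCL1 (chr4:73869143-73869392, plus strand): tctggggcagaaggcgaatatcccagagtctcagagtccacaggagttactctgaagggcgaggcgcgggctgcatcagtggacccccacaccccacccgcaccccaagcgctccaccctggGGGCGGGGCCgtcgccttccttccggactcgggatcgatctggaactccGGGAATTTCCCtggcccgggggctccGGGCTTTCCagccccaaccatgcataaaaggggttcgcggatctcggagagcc
CXCL2 (chr4:74099196-74099445, minus strand): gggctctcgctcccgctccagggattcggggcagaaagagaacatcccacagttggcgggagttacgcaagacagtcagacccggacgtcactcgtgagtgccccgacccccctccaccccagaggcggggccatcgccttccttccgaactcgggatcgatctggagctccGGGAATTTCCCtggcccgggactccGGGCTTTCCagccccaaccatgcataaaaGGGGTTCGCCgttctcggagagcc
CXCL3 (chr4:74038690-74038939, minus strand): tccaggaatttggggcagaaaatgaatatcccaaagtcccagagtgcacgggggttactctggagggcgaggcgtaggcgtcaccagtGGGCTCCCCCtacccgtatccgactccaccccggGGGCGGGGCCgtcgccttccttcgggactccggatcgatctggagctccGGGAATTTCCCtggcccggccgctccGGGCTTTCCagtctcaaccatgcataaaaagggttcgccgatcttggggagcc
The windows of CXCL1 and CXCL3 were 81.4% identical, those of CXCL2 and CXCL3 73.4%, and those of CXCL1 and CXCL2 70.1%. Each of the 3 held GGGAATTTCC, whose first base lay 79, 78 and 79 bases before the start in CXCL1, CXCL2 and CXCL3. Each also held GGGCTTTCC, with its first base 53 bases before the start. CXCL8 held GGAATTTCC, first base 91 bases before the start. The pattern GGNNTTTCC was found in 5.48% of all 35116 RefSeq windows of this length and in 8 of the 16 windows of the expressed members, those of CXCL1, CXCL2, CXCL3, CXCL5, CXCL8, CXCL10, CXCL11 and CCL20. The broader pattern GGGNNNNNCC was found in 54.4% of all windows and in 11 of these 16. The interferon-response letters GAAANNGAAA were found in 3.02% of all windows and, among expressed members, in that of CXCL10. The AP-1 letters TGANTCA were in 6.57% of all windows and in those of CXCL8, CXCL11 and CXCL14. The C/EBP letters TTNNGCAA were in 9.05%, and in windows of CXCL2, CCL3, CCL3L3 and CCL26. The letters TATAA were in 18.9%, and in windows of CXCL8, CXCL11, CCL3, CCL3L3 and CCL20. Of the 16 expressed genes, 13 had a window, and CCL4, CCL5 and CXCL16 had none in the table.

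CXCL8, the interleukin-8 gene, had normalized counts of 41708, 38168 and 41132 in the siControl libraries and 120925, 136150 and 166120 in the siPVT1 libraries. The groups did not overlap, and siPVT1 replicate 3 was the highest library. CXCL8 rose 3.5-fold, a log2 fold change of 1.81 (SE 0.114, edgeR adjusted p = 7.51e-06). CXCL1, which encodes the melanoma growth-stimulating chemokine GRO-alpha, had 12723, 12251 and 12798 normalized counts in siControl and 21161, 27366 and 39303 in siPVT1. CXCL2, which encodes GRO-beta, had 1528, 1346 and 1587 in siControl and 2463, 3224 and 4742 in siPVT1. In both genes every siPVT1 library was above every siControl library, and siPVT1 replicate 3 was highest. CXCL1 rose by 1.22 on the log2 scale (SE 0.193, edgeR adjusted p = 0.000852) and CXCL2 by 1.23 (SE 0.211, edgeR adjusted p = 0.00133). Without siPVT1 replicate 3 the log2 fold changes were 0.93 and 0.919, under the fold threshold, with adjusted p-values of 1.29e-05 and 3.9e-05. The coefficient of variation among siPVT1 libraries was 31.5% for CXCL1 and 33.4% for CXCL2, against 16.3% for CXCL8.

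CXCL3, the third GRO gene, did not follow its neighbours. Its normalized counts were 1967, 1803 and 2035 in siControl and 1187, 1353 and 2006 in siPVT1, so that siPVT1 replicates 1 and 2 lay below all siControl libraries and replicate 3 lay among them. The log2 fold change was −0.35 (SE 0.175, edgeR adjusted p = 0.119). The adjusted p depended on the setting, and was 0.0451 without a filter, 0.0428 with the replicate number as a block, 0.0357 with scaling by the total count and 3.29e-05 without siPVT1 replicate 3, where the log2 fold change was −0.62.

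Ratios within a library do not depend on scaling, and that of CXCL3 to its neighbours did not overlap between the groups. These ratios are made of the same counts as the fold changes above and are not separate evidence. How often other pairs of genes separate in this way was not counted. The log2 ratio of CXCL3 to CXCL2 counts was 0.364, 0.422 and 0.359 in siControl and −1.05, −1.25 and −1.24 in siPVT1, a difference of −1.56. The ratio of CXCL3 to CXCL1 differed by the same amount, at −2.7 ± 0.0564 in siControl and −4.26 ± 0.0949 in siPVT1 (SD, n = 3 each). The ratio of CXCL1 to CXCL2 was 3.09 ± 0.0907 in siControl and 3.08 ± 0.0263 in siPVT1, a difference of −0.00547. The ratio of CXCL8 to CXCL1 was 1.68 ± 0.0371 in siControl and 2.3 ± 0.218 in siPVT1, a difference of 0.624. For 6 such ratios the two-sided exact permutation test gave p = 0.1, which is the lowest value this design can reach, in all but that of CXCL1 to CXCL2 (p = 0.9), and the adjusted values over the 6 were 0.12 and 0.9. Of windows of 75 bases, the read length, in the GENCODE v44 transcripts of CXCL3, 4.57% also occurred in CXCL2, while 7.56% of those of CXCL2 and 0.233% of those of CXCL1 were shared with another gene. With the counts of CXCL1, CXCL2 and CXCL3 summed before the fit, the log2 fold change was 1.1 (SE 0.193, edgeR adjusted p = 0.00149).

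**Figure D2:**
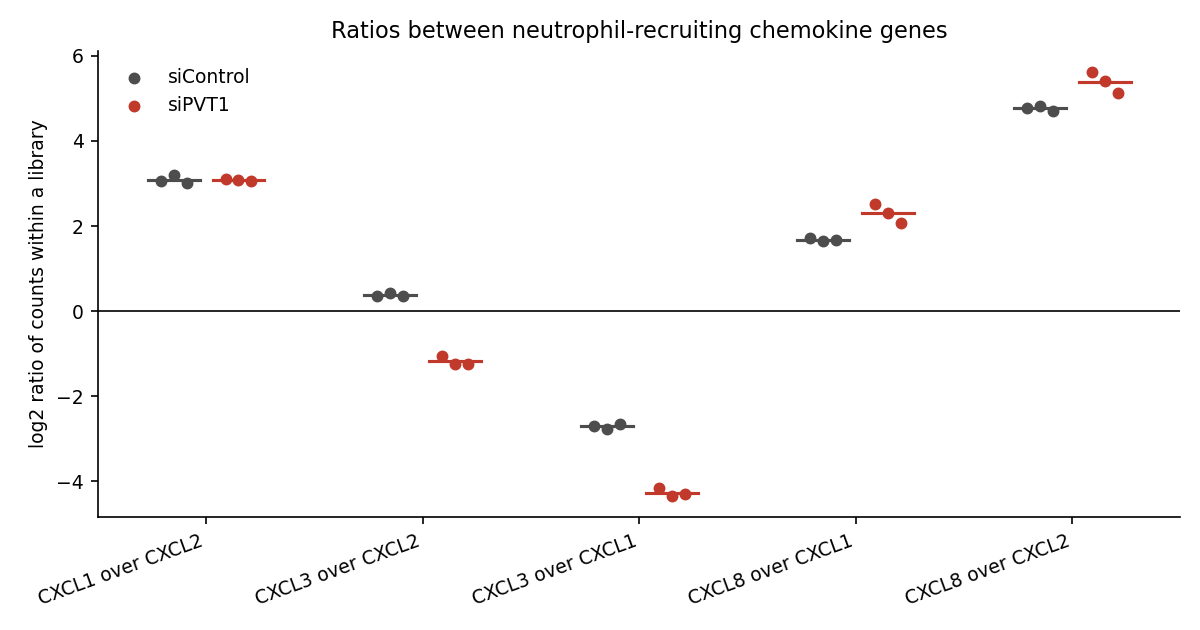
Log2 ratio of counts within a library for 5 pairs of ELR chemokine genes. Points are libraries (3 per group) and bars are means, and the ratio of CXCL1 to CXCL2 stayed near 3.08 in both groups while that of CXCL3 to CXCL2 was 0.382 in siControl and −1.18 in siPVT1.

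Of the other ELR genes, CXCL5, also known as ENA-78, was expressed at a low level. It had 6.67, 8.08 and 5.54 normalized counts in siControl and 14.5, 15.3 and 19.7 in siPVT1, with no overlap. CXCL5 rose by 1.28 on the log2 scale (SE 0.324, edgeR adjusted p = 0.00946), and DESeq2 gave an adjusted p of 0.0518. CXCL6 had at most 2 counts. Platelet chemokine genes of the cluster that are not named CXCL, PF4, PF4V1 and PPBP, had at most 1 count.

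The largest relative rises were in inflammatory CC genes of chromosome 17, which lie in a cluster of 10 CC genes from 35871491 to 36212878. CCL5, CCL3, CCL4 and CCL3L3 were expressed and all 4 rose, while CCL14, CCL15, CCL16, CCL18, CCL23 and CCL4L2 had at most 1 count. CCL3, which encodes MIP-1 alpha, had 20, 21.2 and 21.2 normalized counts in siControl and 723, 668 and 652 in siPVT1. Its siPVT1 libraries varied by 5.45%, less than those of CXCL8, and replicate 3 was the lowest of them. CCL3 rose 32.5-fold, a log2 fold change of 5.02 (SE 0.112, edgeR adjusted p = 1.54e-07). CCL5, or RANTES, had 3.81, 5.05 and 3.69 normalized counts in siControl and 73.5, 78.7 and 63 in siPVT1, a log2 fold change of 4.06 (SE 0.264, edgeR adjusted p = 8.61e-06). Both genes were clearly separated between the groups, and the log2 ratio of CCL3 to CCL5 counts was 2.33 ± 0.233 in siControl and 3.25 ± 0.149 in siPVT1 (SD, n = 3 each).

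CCL4, which encodes MIP-1 beta, and CCL3L3, a near-copy of CCL3, were at the floor in siControl. CCL4 had 0, 1 and 1 counts in siControl and 11, 11 and 25 counts in siPVT1, at least 5.52-fold higher against a floor of 3 counts per library (edgeR adjusted p = 0.000692). CCL3L3 had 0, 2 and 0 counts in siControl and 15, 37 and 80 in siPVT1, at least 15.3-fold higher (edgeR adjusted p = 0.000875). Without siPVT1 replicate 3 this bound was 9.9-fold. The siPVT1 libraries with most CCL3L3 were those with least CCL3, and 0.593% of the windows of 75 bases in CCL3L3 transcripts were shared with CCL3. Summed, CCL3 and CCL3L3 had a log2 fold change of 5.07 (SE 0.107, edgeR adjusted p = 1.21e-07). For CCL5, 8.8% of windows were shared with transcripts of other genes. The neighbouring block of monocyte and eosinophil attractants on chromosome 17, from 34255274 to 34363233, holds CCL2, CCL7, CCL11, CCL8, CCL13 and CCL1 and had at most 2 counts for any gene.

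The window before the start of CCL3, the CC gene with the most counts in siPVT1, held no match to either NF-kB pattern, and that of CCL20, the only other CC gene over 100 normalized counts, held several (capitals as above).
CCL3 (chr17:36090144-36090393, minus strand): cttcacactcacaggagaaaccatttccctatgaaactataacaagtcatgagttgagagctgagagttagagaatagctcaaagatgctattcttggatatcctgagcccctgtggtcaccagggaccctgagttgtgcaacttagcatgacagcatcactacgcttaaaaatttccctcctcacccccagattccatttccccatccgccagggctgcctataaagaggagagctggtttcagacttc
CCL20 (chr2:227813592-227813841, plus strand): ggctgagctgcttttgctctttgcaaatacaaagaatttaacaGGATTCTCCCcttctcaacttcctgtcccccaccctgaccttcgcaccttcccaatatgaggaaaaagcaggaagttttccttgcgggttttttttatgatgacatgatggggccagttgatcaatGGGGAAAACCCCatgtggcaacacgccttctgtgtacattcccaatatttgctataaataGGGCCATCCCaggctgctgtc
CCL3 had 3 windows in the table for different starts, of which the most upstream is shown and another held GGGTATCACC, and the GENCODE gene model of CCL20 begins upstream of the window shown.

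**Figure D3:**
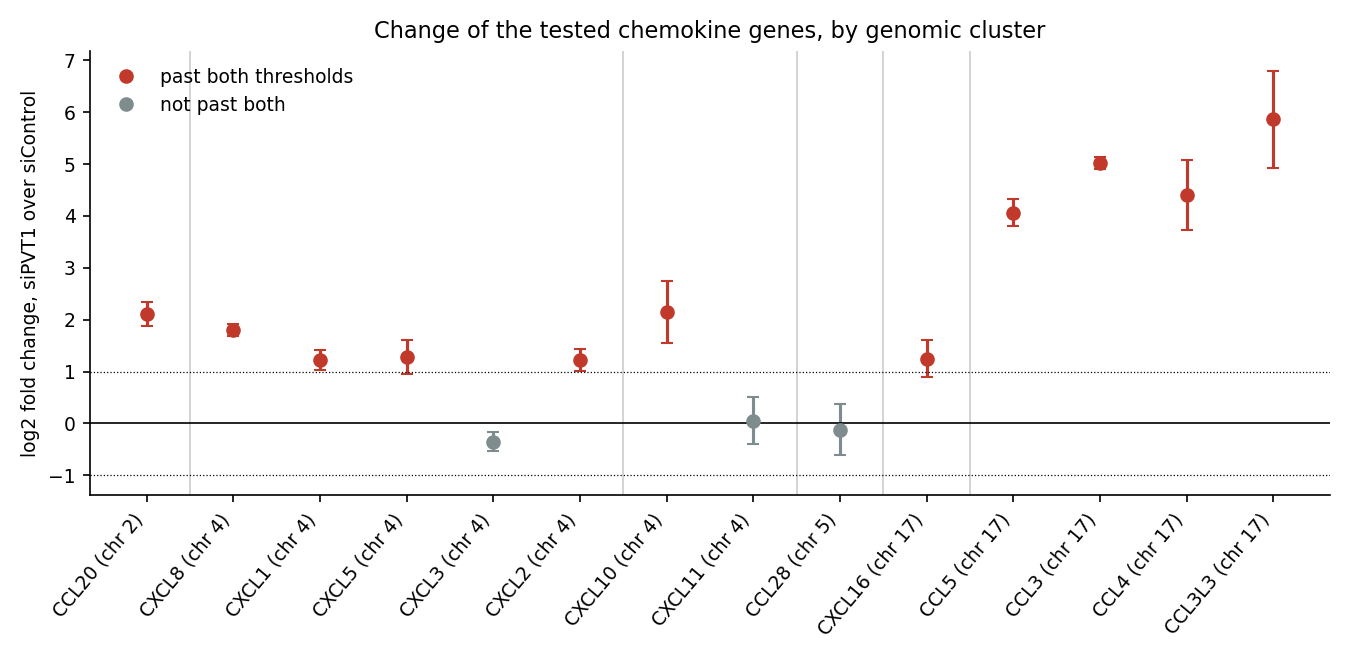
Log2 fold change (siPVT1 over siControl) of the 14 tested chemokine genes, ordered by position and divided by grey lines into genomic clusters. Bars are SEs and dotted lines mark a 2-fold change. The 4 genes of the chromosome 17 cluster had the highest fitted values, of which CCL4 and CCL3L3 were at the floor in siControl, and CXCL3 was alone among the tested ELR genes in not rising.

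CCL20 attracts dendritic cells and Th17 cells through CCR6 and stands alone on chromosome 2, from 227805739 to 227817564. It had 41.9, 36.4 and 31.4 normalized counts in siControl and 115, 162 and 197 in siPVT1. All siPVT1 libraries were above all siControl libraries, and CCL20 rose by 2.11 on the log2 scale (SE 0.231, edgeR adjusted p = 0.000115). CXCL16, a transmembrane chemokine that is shed by ADAM10 and is the ligand of CXCR6, lies apart from other members on chromosome 17, from 4733533 to 4739928. It had 6.67, 9.09 and 15.7 normalized counts in siControl and 24.5, 29.5 and 21.6 in siPVT1. CXCL16 rose by 1.25 on the log2 scale (SE 0.356, edgeR adjusted p = 0.0165), and the adjusted p was 0.056 without siControl replicate 1, 0.0554 without siControl replicate 2 and 0.0621 without siPVT1 replicate 2.

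The CXCR3 ligands lie in a second cluster of chromosome 4, from 76001275 to 76041415, and were close to the detection limit. CXCL10 had 2, 1 and 4 counts in siControl and 9, 5 and 16 in siPVT1. It rose by 2.14 on the log2 scale (SE 0.592, edgeR adjusted p = 0.0142), and the adjusted p was 0.0503 without siControl replicate 1. Under edgeR's filterByExpr filter CXCL10 was not tested. CXCL11 had 9, 3 and 9 counts in siControl and 6, 7 and 7 in siPVT1, which overlap, with a log2 fold change of 0.05 (SE 0.457, edgeR adjusted p = 0.929). CXCL9 was at 0 throughout, so the members of this cluster did not share a direction that these counts could show.

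Among genes known for constitutive expression in tissues, CCL28, a mucosal chemokine on chromosome 5, had 17.1, 8.08 and 15.7 normalized counts in siControl and 7.8, 21.9 and 8.46 in siPVT1. The groups overlapped (log2 fold change −0.12, SE 0.485, edgeR adjusted p = 0.849). CXCL14, also on chromosome 5, had 6, 8 and 5 counts in siControl and 3, 0 and 5 in siPVT1, and was not tested. CCL26, or eotaxin-3, an eosinophil attractant listed apart from these genes, had 5, 29 and 3 counts in siControl and 2, 9 and 0 in siPVT1. Its count in siControl replicate 2 stood above all others, and CCL26 was not tested either. The leukocyte marker LYZ was also highest in that library, with 246 counts against 5 to 79 in the others, and whether the 2 are linked was not tested.

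Of 23 receptor genes, 8 were over 3 counts in some library and 7 could be tested, of which 3 rose and 2 fell, where 11.8% of all tested genes rose and 9.64% fell. CXCR4, the receptor of CXCL12 and the most abundant of them in siPVT1 per length of transcript, had 109, 112 and 121 normalized counts in siControl and 1001.1, 627 and 414 in siPVT1. It rose by 2.57 on the log2 scale (SE 0.302, edgeR adjusted p = 0.000167), and the siPVT1 library with the lowest CXCR4 had the highest CXCL8. CCRL2, an atypical receptor that binds chemerin, had 169, 141 and 172 in siControl and 60.1, 74.3 and 62 in siPVT1, and fell by 1.3 on the log2 scale (SE 0.146, edgeR adjusted p = 0.000135). Both were clear of overlap between the groups.

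The other receptors were scarce. CCR10, the receptor of CCL27 and CCL28, rose from 7.15 ± 3.48 to 20.7 ± 2.52 normalized counts (SD, n = 3 each, log2 fold change 1.54, edgeR adjusted p = 0.00787). ACKR3, a scavenger of CXCL12, rose from 7.72 ± 1.25 to 20.4 ± 10.4 (log2 fold change 1.38, edgeR adjusted p = 0.0319). CCR4 had 7, 14 and 8 counts in siControl and none in siPVT1, at least 2.99-fold lower (edgeR adjusted p = 0.00286), and it could be tested because it was high in siControl. CCR1, which binds CCL3 and CCL5, had 20.5 ± 1.58 and 33.7 ± 6.42 normalized counts (log2 fold change 0.71, edgeR adjusted p = 0.0342), short of the fold threshold. ACKR2 was at 6.73 ± 0.89 and 9.5 ± 1.83 (edgeR adjusted p = 0.321). CXCR1 and CXCR2, through which ELR chemokines act, had at most 2 counts, and CCR6 and CXCR3 were at 0 in every library.

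**Figure D4:**
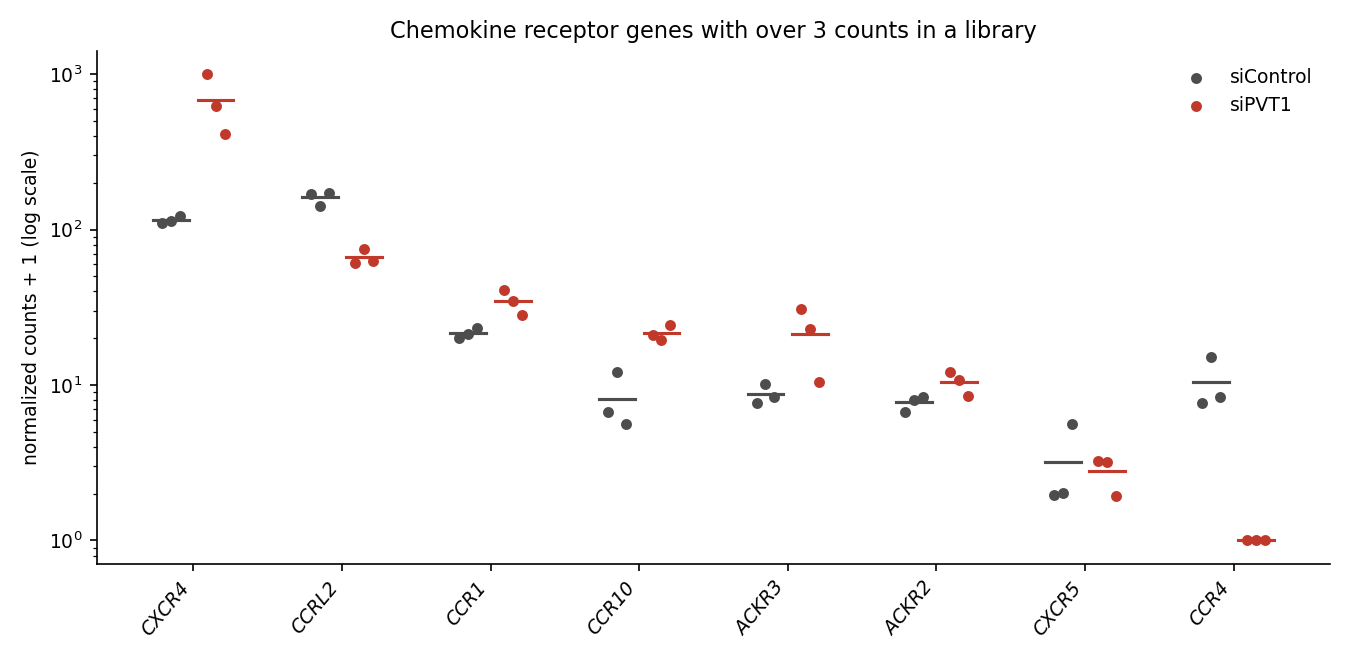
Normalized counts plus 1 (log axis) of the 8 chemokine receptor genes with over 3 counts in a library. Points are libraries (3 per group) and bars are group means, and CXCR4 rose to between 414 and 1001.1 in siPVT1 while CCRL2 fell and CCR4 was at 0.

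Of 14 cytokines that induce chemokines, 7 were tested, 4 rose and 1 fell, against the same 11.8% and 9.64%. IL1B, which encodes the inflammatory cytokine interleukin-1 beta, rose from 6451 ± 126 to 45144 ± 3272 normalized counts (SD, n = 3 each, log2 fold change 2.81, edgeR adjusted p = 2.52e-07). IL1A, TNF and IL36G rose by 1.2, 1.3 and 2.29 on the log2 scale, and LTA, with 2.03 ± 1.77 normalized counts in siPVT1, was at least 5.09-fold lower. IL36G reached the count minimum in siPVT1 libraries alone and LTA in siControl libraries alone, so each was tested through the group where it was high. IFNG, IFNL2 and IFNL3 were at 0 and IFNB1 and IFNL1 had at most 1 count. All 9 regulators of NF-kB feedback and of mRNA decay or stability were tested. Past both thresholds 3 rose and none fell, against the same 11.8% and 9.64%. The 3 were NFKBIA, an inhibitor of NF-kB, NFKBIZ, a nuclear IkB protein that can activate transcription, and TNIP1. Their log2 fold changes were 1.28, 1.35 and 1.14. TNFAIP3, ZC3H12A, ZFP36L2 and ZFP36 were higher by 0.90, 0.84, 0.73 and 0.72, under the fold threshold. Their edgeR adjusted p-values were 0.00013, 4.55e-05, 3.46e-05 and 0.00398. ELAVL1 and ZFP36L1 had edgeR adjusted p-values of 0.0976 and 0.107. Of 12 proteases that shed or trim chemokines, 11 were tested and 2 rose, a share near that of all tested genes (11.8%). These were the lysosomal cathepsin CTSS by 1.61 and the gelatinase MMP9 by 1.87. ADAM10, a sheddase of CXCL16, had a log2 fold change of 0.85 (edgeR adjusted p = 1.94e-05), under the fold threshold.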

How the data were processed

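The authors prepared mRNA libraries (KAPA mRNA HyperPrep), sequenced 75-base single-end reads, aligned these to GENCODE transcripts (GRCh38) by STAR 2.7.3a and quantified them by Salmon 0.14.1, with versions as given in the submitters' processing notes. The authors deposited 1 table of estimated counts by gene symbol, rounded and not normalized, and it was used unchanged. The strand setting is not given in the sources used here, so reads from overlapping genes on opposite strands may not be told apart. All 6 columns were matched to a sample by its description.

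edgeR 4.0.16 (R 4.3.3) was run on all 6 libraries with TMM normalization and the quasi-likelihood test, with siRNA as the only term, restricted to 19008 genes that reached 5 normalized counts in 3 or more libraries. Calls required a change of 1 or more on the log2 scale in either direction and an adjusted p-value (Benjamini-Hochberg over all 19008) under 0.05. Normalized counts are scaled to the mean library. Each SE is the size of the log2 fold change over the root of its F statistic. A group was at the floor where each library had at most 3 counts, and folds against it are bounds from the floor per library. DESeq2 1.42.0 was an alternative. Both tools were tested on simulated data first.

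GENCODE v44 (GRCh38), which held all 43 symbols, supplied positions, clusters (starts under 1 Mb apart) and transcript lengths, and RefSeq the promoter windows. The members, lists and roles were chosen with earlier results of these data known. All members over 3 counts, every listed gene past both thresholds and the most abundant receptors were named by rule, and a few listed genes are not reported here. Alternatives were DESeq2, 2 other scalings, 2 other filters, a block for replicate number, omission of each library, the adjusted p-value alone, a test against a 2-fold change and, added after seeing the data, near-identical copies summed, a floor of 10 normalized counts and bounds without each library.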

Additional observations from a re-analysis of the deposited data

How the results depend on the processing

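The count of chemokine genes past both thresholds was 11, all higher, and lay between 9 and 11 when each library was omitted in turn (the 19008 tested genes held fixed). When the 3-library minimum was applied anew without a siPVT1 library, CCL3L3, CCL4 and CXCL10 were no longer tested and 6 to 8 genes were called. The edgeR test against a 2-fold change called 6 chemokine genes (CCL3, CCL3L3, CCL4, CCL5, CCL20 and CXCL8) and 1976 of all genes in place of 4081, while the adjusted p-value alone called 11007 of all genes and 27 receptor and partner genes in place of 15. Over 13 alternatives, the 11 called genes kept direction in all 141 values and their call in 134. The 7 lost calls included those of CXCL5 in DESeq2 and of CXCL1 and CXCL2 without siPVT1 replicate 3. The others were those of CXCL10 without siControl replicate 1 and of CXCL16 in 3 fits without 1 library. CXCL10 was not tested under edgeR's filterByExpr filter and has no value there, and 10 chemokine genes were called. CCL3L3 had no value of its own where its counts were summed with those of CCL3. PVT1 had a log2 fold change of −0.72, from −0.80 to −0.62 without 1 library, and the count of expressed chemokine genes was 14 to 16. With the replicate block 11 chemokine genes and 3924 of all genes were called. Same-numbered libraries had correlated deviations of −0.0526, 0.0757 and 0.0147 and not every library correlated best with its own number, so the numbers were not taken to pair the samples. Without 1 library, 14 to 15 receptor and partner genes and 3732 to 4447 of all genes were called, and members joined at 1 Mb gave 16 clusters, against 13 at 2 Mb and 18 at 0.1 Mb. Depth limits the genes at a few counts, where counting error alone is large.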

Other observations

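Genes beside the chemokine clusters were looked at after the chemokine values were seen. Across all tested genes, 11.8% rose and 9.64% fell past both thresholds. Within 200 kb of the ELR cluster on chromosome 4, 5 other protein-coding genes were in the table, with the platelet chemokine genes PF4, PF4V1 and PPBP among them. Of these 5, 2 were tested, and both fell. MTHFD2L, which encodes a mitochondrial folate enzyme and lies beyond CXCL2, had 615 ± 24.5 normalized counts in siControl and 239 ± 8.79 in siPVT1 (SD, n = 3 each, log2 fold change −1.36, edgeR adjusted p = 5.66e-06), and RASSF6, beyond CXCL8, fell from 9.01 ± 1.85 to 3.15 ± 1.17 (log2 fold change −1.48, edgeR adjusted p = 0.0195) and reached the count minimum in siControl libraries alone. Around the CCL3 and CCL5 cluster of chromosome 17, 14 other genes were in the table, 3 were tested and none was called, among them TAF15 with a log2 fold change of −0.18 (SE 0.111, edgeR adjusted p = 0.188). Around CXCL16, 19 were in the table and 11 were tested, of which SPNS2, ARRB2 and C17orf107 rose (log2 fold changes 2.12, 1.01 and 1.04) and MYBBP1A and PELP1 fell (−1.39 and −1.25). Around CCL20, 10 were in the table and 2 were tested, of which DAW1 fell (−2.50) and was tested through its siControl counts alone. Around the CXCR3 ligands, 8 were in the table, 5 were tested and none was called.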
